A study of Mus musculus with 13 samples.

Results

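Neurexins and neuroligins are synaptic adhesion proteins, and 5 of their genes were followed here across the cell classes of the ageing mouse hippocampus: Nrxn2, Nrxn3, Nlgn1, Nlgn2 and Nlgn3. The genes were chosen by name, as 5 of the 32285 genes in the count matrices. Earlier results of these data were known at that choice. Counts set beside the share of all genes are therefore descriptions and not tests of the 5 genes. The study counted RNA in single nuclei from the whole hippocampus of 13 female C3HB6F1 mice with the 10x 3' method, 1 library per mouse. 3 mice were 5 months old and fed ad libitum, and 3 were 24 months old and fed ad libitum. Another 3 mice of 24 months had been under dietary restriction since 20 months of age (acute restriction), and 4 mice of 24 months had been restricted since 5 months (long-term restriction). All groups share sex, strain and tissue, and no allele or transgene is named for any of them.

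Neurexins sit mainly on the presynaptic membrane, and each gene has promoters for a long and a shorter protein whose transcripts are spliced in many ways. Neuroligins are their best known postsynaptic ligands. Nlgn1 is known for excitatory synapses, Nlgn2 for inhibitory synapses and Nlgn3 for both. Both families are also made by glia, among them astrocytes and oligodendrocyte precursors, which receive synaptic contacts from neurons.

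Nrxn2 lies on chromosome 19 at 6418731 to 6544169 on the plus strand (build GRCm38, as are all positions here) and spans 125.4 kb. It overlaps Slc22a12 and the antisense gene Gm14964 on the opposite strand. Nrxn3 spans 1612.1 kb of the plus strand of chromosome 12, at 88722876 to 90334935. Nlgn1 spans 906.2 kb of the minus strand of chromosome 3, at 25426215 to 26332460, and overlaps Gm37573 on its own strand and A830092H15Rik on the other. Nlgn2 is a gene of 14.7 kb on the minus strand of chromosome 11, at 69823122 to 69837784, and Nlgn3 one of 26.8 kb on the plus strand of the X chromosome, at 101299168 to 101325963. Whether the counting used strand and introns is not given in the sources used here, so reads of overlapping genes may be shared.

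The counts are per gene and pool transcripts from separate starts. RefSeq (GRCm38.p6) lists 3 starts of Nrxn3 and 2 of Nlgn1, and 3 of the 5 genes (Nrxn3, Nlgn1 and Nlgn2) were matched in its promoter table. The 250 bases before the first and the last start of Nrxn3 and the first start of Nlgn1 are shown because these are the genes on which the results below turn. These are RefSeq starts, while the gene spans above are from GENCODE vM21: the first RefSeq start of Nrxn3 lies 71.6 kb inside its GENCODE span, and that of Nlgn1 lies 551 bases inside, so all 3 windows fall within the spans. CG pairs, searched as the letters CG on both strands, are in capitals.
Nrxn3, first RefSeq start, chr12:88794254-88794503, plus strand: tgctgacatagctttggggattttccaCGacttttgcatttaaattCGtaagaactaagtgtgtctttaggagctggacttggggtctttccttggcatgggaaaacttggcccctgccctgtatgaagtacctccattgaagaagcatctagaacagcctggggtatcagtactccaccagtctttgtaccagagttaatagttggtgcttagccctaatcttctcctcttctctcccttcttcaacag
Nrxn3, last RefSeq start, chr12:89812233-89812482, plus strand: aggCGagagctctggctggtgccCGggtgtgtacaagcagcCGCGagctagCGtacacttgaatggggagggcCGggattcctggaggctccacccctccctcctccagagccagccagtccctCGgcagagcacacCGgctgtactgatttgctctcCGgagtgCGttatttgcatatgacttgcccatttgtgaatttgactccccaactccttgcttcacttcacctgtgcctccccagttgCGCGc
Nlgn1, first RefSeq start, chr3:26331910-26332159, minus strand: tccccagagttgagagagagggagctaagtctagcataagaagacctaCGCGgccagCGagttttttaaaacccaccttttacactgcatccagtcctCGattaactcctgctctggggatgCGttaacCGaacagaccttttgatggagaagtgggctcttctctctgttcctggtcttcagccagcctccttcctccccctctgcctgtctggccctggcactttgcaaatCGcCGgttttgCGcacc
The window before the first RefSeq start of Nrxn3 holds 2 CG pairs, and 81.2% of 32851 promoter windows of this length hold at least as many. This start lies 71.6 kb inside the GENCODE span, so its window need not be a promoter of the gene, which was not tested. The last start lies 1018 kb downstream of the first, and its window holds 12 CG pairs, a number reached by 33.5% of windows. The window of Nlgn1 holds 9, reached by 40.3%. Which start was used in which nucleus cannot be read from counts of whole genes.

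The 13 libraries held between 38546292 and 80538090 unique molecular identifiers (UMIs, 1 per captured RNA molecule). Median UMIs per retained nucleus ranged from 3801 to 11375, and the library pairs shared between 4 and 40 barcodes. Nuclei fell into 36 clusters, made without the 5 genes. A total of 21 clusters with 80414 nuclei could be named from marker genes, and 17627 nuclei in 15 clusters stayed unnamed. Of the 13 classes, 10 held enough nuclei to be compared between groups. In each of these 10 the class's own marker list was higher than in any other compared class, in every mouse with enough nuclei. Names carry "-like" in full, and are shortened below to granule, CA1, CA3, inhibitory, astrocyte, oligodendrocyte, OPC (oligodendrocyte precursor), microglia, endothelial and mural. The libraries numbered 1 stood apart from the others in all groups: a term for that number passed the test in 9377 of 97305 gene-class pairs (9.64%). Among the 5 genes it passed only for Nlgn3 in granule nuclei (log2 difference 0.28, SE 0.06, edgeR adjusted p = 0.0058). Levels are given in CPM, the usual scaling of a gene's UMIs to a fixed total, here the UMIs of its class in 1 mouse. Class levels are descriptions without a test.

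**Figure D1:**
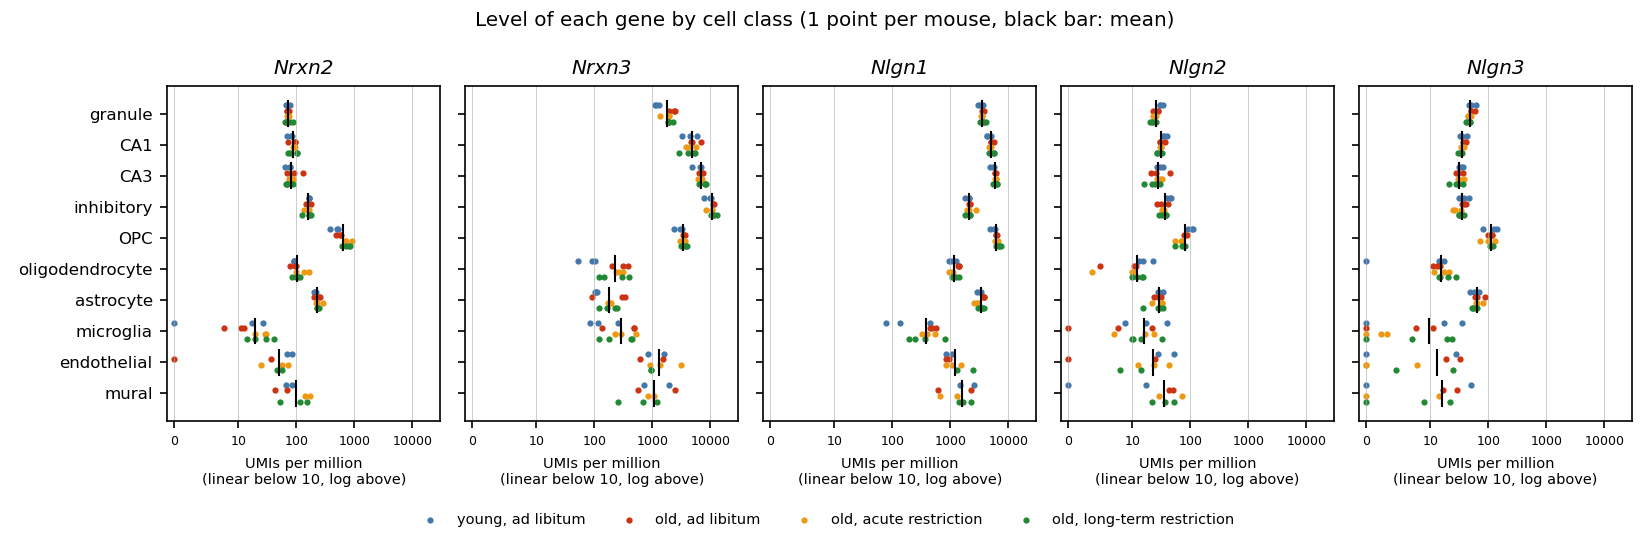
Level of each gene in CPM (axis linear below 10 and logarithmic above) in the 10 compared classes, with 1 point per mouse coloured by group and a black bar at the mean. OPC-like nuclei lie furthest to the right for Nrxn2, Nlgn2 and Nlgn3, and inhibitory-like nuclei for Nrxn3.

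OPC-like nuclei, the proliferating glia that give rise to oligodendrocytes, had the highest mean level of 4 of the 5 genes among the compared classes, for Nlgn1 only as long as doublets were removed. Nrxn2 reached 639 ± 156 CPM there (SD, n = 13 mice), with a lowest value of 375, a median of 604 and a highest of 904. The next class, astrocytes, had 231 ± 25.0 CPM. The ratio of the means was 2.77, OPC exceeded astrocytes in 13 of 13 mice and the ranges did not overlap. Below them Nrxn2 was at 159 ± 15.0 in inhibitory nuclei and 104 ± 24.3 in oligodendrocytes. CA1 (86.3 ± 11.8), CA3 (80.2 ± 16.8) and granule nuclei (72.4 ± 6.58) did not differ from their neighbours in this order beyond their spread. Spread is the larger of the compared SDs over the mice of all groups and leaves out the pairing within mice. Within mice, CA1 exceeded CA3 in 12 of 13 and CA3 exceeded granule nuclei in 10 of 13.

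Nlgn3 followed the same leading pair of glial classes. It was at 110 ± 18.6 CPM in OPC (72.1 to 139, median 114) and at 63.2 ± 10.97 in astrocytes, with OPC higher in 13 of 13 mice. Granule nuclei came next at 49.4 ± 5.90, below astrocytes in 13 of 13 mice. CA1, inhibitory and CA3 nuclei, at 35.9, 34.7 and 31.8 CPM, lay within each other's spread. Oligodendrocytes, at 15.2 ± 6.39, lay far below their precursors.

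Nlgn2, the neuroligin of inhibitory synapses, was at 79.9 ± 17.3 CPM in OPC (54.0 to 113, median 78.3). Inhibitory (36.1 ± 5.91), CA1 (31.8 ± 3.69), astrocyte (28.4 ± 5.42), CA3 (28.0 ± 6.96) and granule nuclei (25.9 ± 3.82) formed a continuous series in which no neighbours differed beyond their spread. Mean levels in microglia (16.1 ± 10.9) and oligodendrocytes (11.97 ± 4.78) rested on 40 and 237 UMIs in all.

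Nlgn1 was at 6221 ± 647 CPM in OPC (4880 to 7377, median 6157). CA3 was close at 5830 ± 443, exceeded by OPC in 11 of 13 mice but within the spread, and with doublets kept CA3 had the higher mean. CA1 (4980 ± 470) exceeded granule nuclei (3542 ± 295) in 13 of 13 mice without overlap. Astrocytes (3329 ± 417) were below granule nuclei in 10 of 13 mice but did not differ from them beyond the spread. Inhibitory nuclei, at 2127 ± 252, were the lowest of the named neuronal classes compared. Oligodendrocytes were at 1168 ± 172.

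Nrxn3 had another order, led by neurons. Inhibitory nuclei were at 10582 ± 1285 CPM (7910 to 12816, median 10657) and exceeded CA3 (6924 ± 942) in 13 of 13 mice. CA3 exceeded CA1 (4732 ± 1084) in 13 of 13 mice, and CA1 exceeded OPC (3388 ± 425) in 12 of 13. Granule nuclei had 1819 ± 453. Endothelial nuclei came next among the compared classes, below granule nuclei in 7 of 9 mice (ratio of means 1.35) but within the spread. Mural nuclei followed, below endothelial nuclei in 5 of 8 mice and also within the spread. The mean levels of both lay above that of microglia. Microglia (291 ± 163), oligodendrocytes (224 ± 114) and astrocytes (181 ± 78.5) did not differ from each other beyond their spread.

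Microglia-like nuclei are not known for these genes and serve here as a reference for low levels, to which free RNA in the droplets could add. To compare shares across depths, each nucleus was thinned to 1000 UMIs, and the share with at least 1 UMI of Nrxn3 was then 20.5% in microglia (29.0% before thinning), 18.3% in oligodendrocytes (31.5%) and 16.1% in astrocytes (34.8%). The medians over mice of the median depth were 1442.5, 1890 and 2804 UMIs per nucleus. After thinning, the Nrxn3 shares of oligodendrocytes and astrocytes were thus below that of microglia, and before thinning they were above it. Free RNA itself was not measured and the classes differ in depth, so its part in these counts was not tested. For Nlgn1 the thinned share was 26.0% in microglia against 59.8% in oligodendrocytes, 93.6% in astrocytes and 99.1% in OPC. For Nrxn2 it was 1.85% in microglia, 9.60% in oligodendrocytes and 47.1% in OPC. Nlgn2 was seen in 0.93% of thinned oligodendrocytes and 1.95% of thinned microglia, and Nlgn3 in 1.63% and 0.924%. Neither gene stood clear of the microglial share in oligodendrocytes.

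Levels of different genes were set side by side only per kilobase of gene span. In OPC these were 6.86 CPM per kb for Nlgn1, 5.43 for Nlgn2, 5.09 for Nrxn2, 4.10 for Nlgn3 and 2.10 for Nrxn3. In inhibitory nuclei the order was another one, with 6.56 for Nrxn3, 2.46 for Nlgn2, 2.35 for Nlgn1, 1.29 for Nlgn3 and 1.27 for Nrxn2. 3' counts need not scale with span, so these values describe the counts only.

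Inhibitory neurons were clustered again, and subclusters with raised markers of the same type were pooled under its name. Each pool is called a subcluster below. Other inhibitory subclusters could not be named and are left out of the order. Pooled, these unnamed nuclei lay between somatostatin and parvalbumin nuclei for Nrxn3 and between Lamp5 and Vip nuclei for Nlgn1. Among the named ones, Nrxn3 was highest in the subcluster marked by Cck and Cnr1 (20897 ± 3097 CPM, n = 8 mice). This subcluster exceeded the Vip subcluster (13891 ± 1980, n = 13) in 8 of 8 mice that had both. The somatostatin subcluster (13269 ± 1779, n = 12) did not differ from Vip beyond the spread. Parvalbumin nuclei had 7707 ± 972 (n = 12), and Lamp5 nuclei had 3682 ± 593 (n = 11), lower in 11 of 11 mice without overlap.

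Nlgn1 was distributed differently over the same subclusters. Lamp5 nuclei, the lowest for Nrxn3, were the highest for Nlgn1 at 3007 ± 310 CPM. Vip had 2571 ± 386 and the Cck and Cnr1 subcluster 1804 ± 258. Somatostatin (898 ± 349) and parvalbumin nuclei (825 ± 193) were low and did not differ beyond their spread. Nrxn2 was highest in Vip nuclei, at 258 ± 32.6 CPM, without overlap with the Cck and Cnr1 subcluster at 161 ± 22.9. Nlgn2 (34.5 to 38.7 CPM) and Nlgn3 (26.0 to 41.0) showed no difference between neighbouring subclusters beyond their spread.

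**Figure D2:**
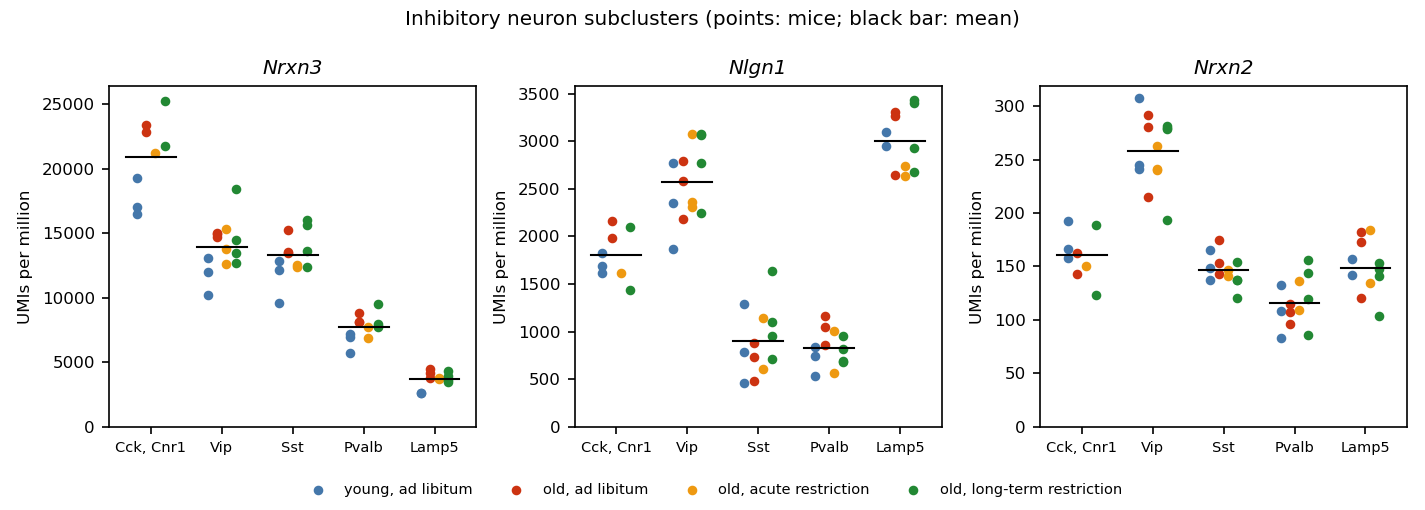
Nrxn3, Nlgn1 and Nrxn2 in CPM (linear axes from 0) in the 5 named inhibitory neuron subclusters, without the unnamed ones. Each has 1 point per mouse coloured by group and a black bar at the mean. Lamp5 nuclei are lowest for Nrxn3 (mean 3682) and highest for Nlgn1 (mean 3007), and Vip nuclei are highest for Nrxn2 (mean 258).

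For each gene, up to 3 genes whose mean level followed it most closely over the 10 classes were listed by Spearman correlation. They were sought among up to 1294 genes tested in every class with a mean log2 CPM of at least 5. These are descriptions over 10 points that share libraries. Nrxn2, Nlgn2 and Nlgn3 had too few counts to be tested in microglia and endothelial nuclei, as had Nlgn2 and Nlgn3 in mural nuclei. Their ranks in those classes rest on low counts. Nrxn2 was closest to Lrrc4c (0.90) and Ehbp1 (0.89). Nrxn3 was closest to Scai (0.96), Nrg3 (0.95) and Cadps (0.94), and Nlgn1 to Ptprs (0.89), Cntn1 (0.88) and Csmd1 (0.88). Nlgn2 was closest to Kdm4c (0.87), Gmds (0.87) and Rbms1 (0.82), and Nlgn3 to Clasp1 (0.92), Kat6b (0.87) and Tnik (0.87).

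The first comparison between groups asks what age does under free feeding. UMIs were summed per mouse and class and tested with edgeR, and a gene is called changed in a class at a Benjamini-Hochberg adjusted p below 0.05 over all genes of that class. Of 50 gene-class pairs, 42 had enough counts to be tested. Left out were Nrxn2, Nlgn2 and Nlgn3 in microglia and endothelial nuclei and Nlgn2 and Nlgn3 in mural nuclei. Between 24 and 5 months, 3 of the 42 pairs were called, all higher with age, beside 1.7% of all gene-class pairs: Nrxn3 in granule nuclei, and Nrxn3 and Nlgn1 in oligodendrocytes. The share of all genes called was 2.99% in granule nuclei and 7.83% in oligodendrocytes. On the normalised scale of the fit (TMM, which also corrects for differences in composition) the old mice were all above the young ones in 13 of 42 pairs and all below in 2, beside 12.7% and 9.42% of all pairs. CPM lack that correction, and groups that do not overlap on one scale can overlap on the other.

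Nrxn3 rose with age in granule-like nuclei, the principal neurons of the dentate gyrus. Young mice had 1176, 1091 and 1297 CPM, and old mice fed ad libitum had 1962, 2502 and 2352, from 19967 to 68255 UMIs of the gene per mouse. The groups did not overlap. This was a 2.14-fold higher level (1.10 on the log2 scale, SE 0.14, edgeR adjusted p = 0.0044). Mice under acute restriction had 1381, 1949 and 1929 CPM, and those under long-term restriction 1923, 2302, 1900 and 1877. The lowest acutely restricted mouse lay close to the highest young one, and all restricted mice lay above all young mice.

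The granule result was called whichever single mouse was left out, with log2 fold changes from 0.99 to 1.18, and without the 4 libraries numbered 1 (1.21, edgeR adjusted p = 0.0013). Nuclei of old mice were also deeper: median UMIs per granule nucleus were 3880 to 6573 in the young mice and 7104 to 12965 in the old ones. With that depth in the fit the log2 fold change was 1.13 (SE 0.19) but no longer called (edgeR adjusted p = 0.13), and depth and age cannot be told apart. After a trend over gene span was removed it was 0.66 (edgeR adjusted p = 0.068). Of 16 marker lists of other cell types, summed in the same granule nuclei, 5 were higher in all old mice and 2 lower. The higher ones included the OPC list (952 to 959 CPM in young and 1128 to 1203 in old mice) and the CA3 list (731 to 823 and 931 to 1035), while the inhibitory, CA1, mossy cell, subicular or cortical and Cajal-Retzius lists overlapped. Their part in the result was not tested. In summed counts, fewer nuclei with the gene and less of its RNA per nucleus cannot be told apart.

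**Figure D3:**
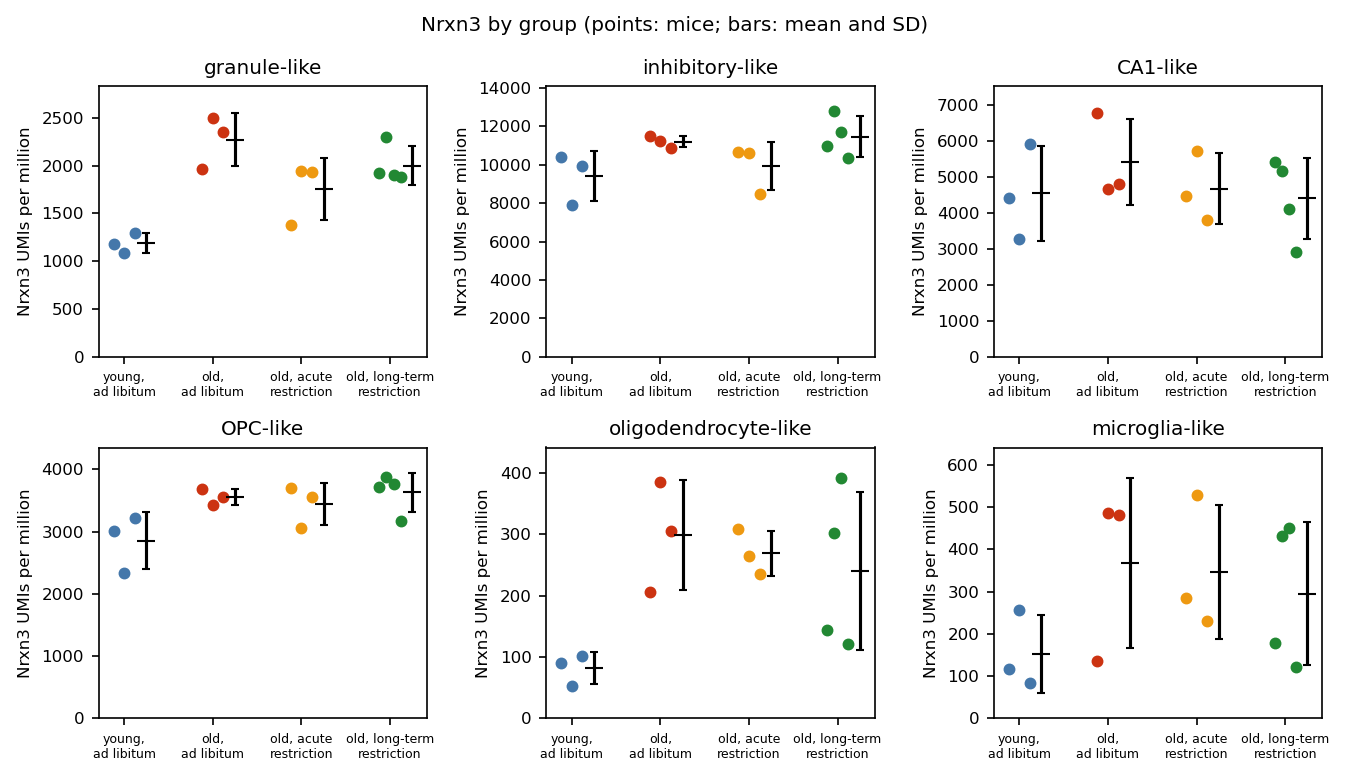
Nrxn3 in CPM (linear axes from 0, each panel with its own range) in 6 classes by group, with 1 point per mouse and the mean and SD beside them. In granule-like nuclei the old mice fed ad libitum (1962 to 2502) lie above the young ones (1091 to 1297), and in oligodendrocyte- and microglia-like nuclei all values are at most 528 CPM.

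Other neurons had smaller differences in Nrxn3 that were not called. In inhibitory nuclei young mice had 10397, 7910 and 9939 CPM and old mice 11485, 11251 and 10899, without overlap (log2 fold change 0.35, SE 0.14, edgeR adjusted p = 0.20). In these sums 1 of 6 marker lists of other neurons was higher in all old mice and 0 lower. Of 10 lists of non-neuronal cells, 2 were higher and 2 lower, and the part of these lists was not tested. The changes in CA1 (0.38, SE 0.30) and CA3 (0.24, SE 0.18) came from overlapping groups. The difference between the granule change and that of another class was tested with limma on the within-mouse difference of log2 levels. It was 0.74 (SE 0.14, limma adjusted p = 0.072) against inhibitory, 0.84 (SE 0.17, limma adjusted p = 0.12) against CA3 and 0.69 (SE 0.32, limma adjusted p = 0.87) against CA1. The rise in granule nuclei was thus not shown to differ from that in the other neurons.

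Granule nuclei fell into 5 clusters, which were also fitted separately after the class result had been seen. Cluster 1, led by Dsp, Lct, Lgr6 and Npnt, had young values of 618, 429 and 565 CPM and old values of 1192, 1247 and 1216. Its log2 fold change of 1.30 (SE 0.14, edgeR adjusted p = 0.00029) was the largest of the 5. Cluster 2, led by Lct and Dsp, rose from 1467, 1157 and 1327 to 2310, 2739 and 2261 (log2 fold change 1.01, edgeR adjusted p = 0.0010). Cluster 12, led by Trpc6 and Plk5, rose from 2259, 1771 and 2199 to 3570, 3941 and 3489 (log2 fold change 0.91, edgeR adjusted p = 0.0037).

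The other 2 clusters had smaller differences. Cluster 0, led by Trpc6, Stxbp6 and Glis3, had 2880, 2094 and 2549 CPM in young and 3040, 3429 and 3258 in old mice (log2 fold change 0.47, edgeR adjusted p = 0.11). Cluster 10, led by Ano2, Trhr and Gmnc, had 966, 863 and 953 in young and 1092, 1061 and 1284 in old mice (log2 fold change 0.43, edgeR adjusted p = 0.13). Old mice lay above young ones without overlap in all 5 clusters. The clusters share the same mice, so these are not 5 separate results. The share of all genes that did so within these clusters was not counted. With depth in the fit, clusters 1 and 2 were still called (log2 fold change 1.10 and 0.98, edgeR adjusted p = 0.046 and 0.047).

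The change in cluster 1 exceeded that in cluster 0 by 0.84 on the log2 scale (SE 0.08, limma adjusted p = 1.0e-04). It exceeded that in cluster 10 by 0.90 (SE 0.09, limma adjusted p = 2.3e-05). Of all genes 0.0735% and 0.0175% were called, which is 10 of 13603 and 2 of 11428 with Nrxn3 among them. The adjustment is over genes and not over pairs of clusters. Both differences were called whichever single mouse was left out. Without the 4 libraries numbered 1 the first was 0.80 (limma adjusted p = 0.074) and the second 0.96 (limma adjusted p = 0.0012). Cluster 1 did not differ by this test from clusters 2 (0.31, limma adjusted p = 1.0) and 12 (0.41, limma adjusted p = 0.17). The difference from cluster 12 was called without the libraries numbered 1 (0.46, limma adjusted p = 0.016), without acute mouse 1 (limma adjusted p = 0.014) and without acute mouse 3 (limma adjusted p = 0.039). Clusters changed in size with age: cluster 2 held 1324, 2968 and 1612 nuclei in the young mice and 86, 254 and 108 in the old ones, while cluster 0 held 312, 133 and 544 against 272, 1974 and 1298. As shares of granule nuclei, cluster 2 held 38.3, 65.7 and 43.5% in young and 11.3, 7.0 and 4.4% in old mice. Cluster 0 held 9.0, 2.9 and 14.7% in young and 35.6, 54.0 and 52.7% in old mice, without overlap. The mean log2 fold change of Nrxn3 within the 5 clusters was 0.82 (0.43 to 1.30), below the class value given above. How much of the class change came with the shift of nuclei between clusters was not tested.

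**Figure D4:**
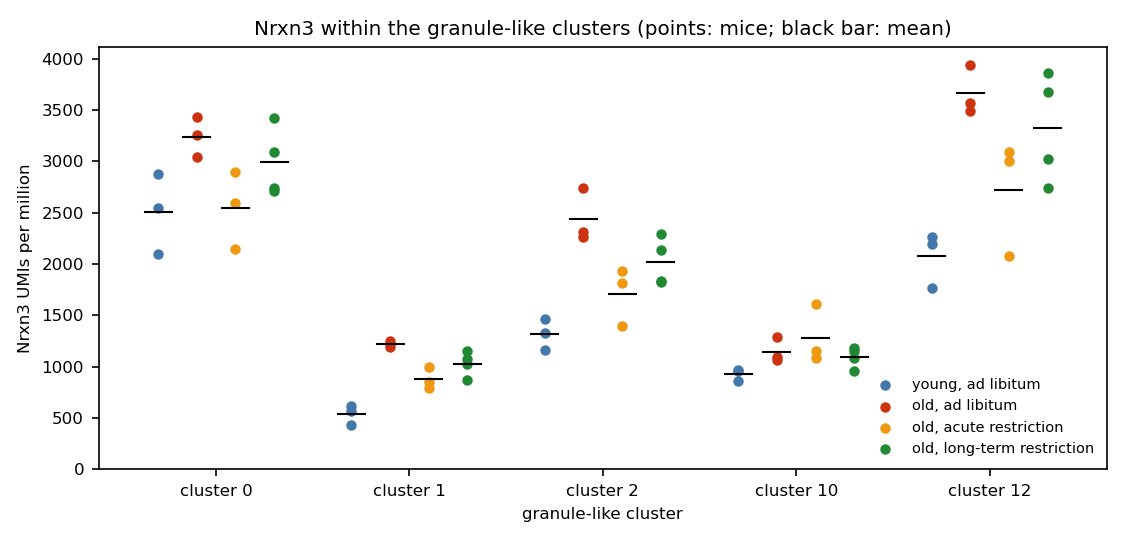
Nrxn3 in CPM (linear axis from 0) in the 5 granule-like clusters, with 1 point per mouse, groups in colour and a black bar at the mean. In cluster 1 the old mice fed ad libitum (1192 to 1247) lie above the young ones (429 to 618), and the log2 fold change of 1.30 there compares with 0.47 in cluster 0 and 0.43 in cluster 10.

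In oligodendrocytes, the myelinating glia, both calls rested on less. Nrxn3 was at 90.5, 52.0 and 102 CPM in young and 206, 386 and 306 in old mice, from 8 to 1334 UMIs, without overlap (log2 fold change 2.01, SE 0.50, edgeR adjusted p = 0.041). It was called in 3 of the 13 fits that left out 1 mouse, and not without the libraries numbered 1 (2.14, edgeR adjusted p = 0.10) or with depth in the fit (1.86, edgeR adjusted p = 0.74). The share of nuclei with Nrxn3 in this class was below that of microglia after thinning and above it before. In microglia it was at 117, 256 and 82.6 in young and 135, 485 and 481 CPM in old mice (log2 fold change 1.38, SE 0.75, not called).

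Of 7 neuronal marker lists, 3 were higher in all old mice than in all young ones in the oligodendrocyte sums, those of granule, CA3 and Cajal-Retzius neurons. The summed level of the 8 granule markers was 3616 to 4457 CPM in young and 4724 to 4885 in old mice. Of the 8, 0 were at 0 UMIs in every old mouse and 3 in 1 young mouse. The lowest sum of this list in granule nuclei themselves was 4065 CPM, so across mice the list is not specific to granule nuclei. The 8 CA3 markers summed to 147 to 208 and 254 to 280, and the 7 Cajal-Retzius markers to 10.6 to 12.2 and 17.4 to 28.9. Mossy cell and subicular or cortical markers overlapped between the groups, as did the 8 CA1 markers (106 to 138 and 86.7 to 123) and the 11 inhibitory markers (1991 to 3032 and 2159 to 2673). Of 9 lists of non-neuronal cells 1 was higher in all old mice, that of ependymal or choroid plexus cells (11.3 to 21.1 and 22.6 to 33.9). The part of these markers in the 2 calls was not tested. Median UMIs per oligodendrocyte were 1182 to 1661 in young and 1988 to 3169 in old mice.

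Nlgn1 in oligodendrocytes was at 1018, 931 and 1245 CPM in young and 1390, 1402 and 1338 in old mice, without overlap (log2 fold change 0.43, SE 0.13, edgeR adjusted p = 0.044). It was called in 4 of the 13 fits that left out 1 mouse and not by DESeq2 (adjusted p = 0.14), with depth in the fit (0.23, edgeR adjusted p = 0.94) or without the libraries numbered 1 (0.31, edgeR adjusted p = 0.29). With the trend over gene span removed its direction turned (log2 fold change -0.43, edgeR adjusted p = 0.065). On the normalised scale old mice also lay above young ones without overlap in 6 further classes for Nlgn1, none of them called. The log2 fold changes there were 0.33 in CA1, 0.32 in granule, 0.29 in astrocytes, 0.27 in OPC, 0.25 in CA3 and 0.20 in inhibitory nuclei, each with an SE between 0.10 and 0.15. Of all gene-class pairs 12.7% were all higher in this way, and the share within each class is not given here. The classes share the same mice, so these are not 6 separate results. In granule nuclei young mice had 3596, 3001 and 3226 CPM and old mice 3667, 3452 and 3820, which overlap on the CPM scale, as did the values in CA1.

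Nrxn3 in OPC was just outside the threshold. Young mice had 3017, 2333 and 3212 CPM and old mice 3679, 3419 and 3555, without overlap (log2 fold change 0.38, SE 0.11, edgeR adjusted p = 0.067). In the OPC sums 3 of 7 neuronal marker lists were also higher in all old mice and 0 lower, with values given further below. Their part in this difference was not tested. In astrocytes the change of 1.10 (SE 0.42, edgeR adjusted p = 0.27) came from overlapping groups, with a thinned share below that of microglia.

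Nrxn2, Nlgn2 and Nlgn3 were called in no class with age. The log2 fold changes of Nrxn2 ran from -0.52 in mural nuclei to 0.43 in CA3, with a median of 0.19 over 8 classes. Nlgn2 ran from -0.46 to 0.05 over 7 classes and Nlgn3 from -0.22 to 0.23. For Nlgn2 the fold was above 0 only in CA3, and in inhibitory nuclei young mice had 45.0, 40.4 and 46.2 CPM against 40.8, 31.8 and 26.3 in old mice (log2 fold change -0.31, SE 0.16, edgeR adjusted p = 0.28).

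**Figure D5:**
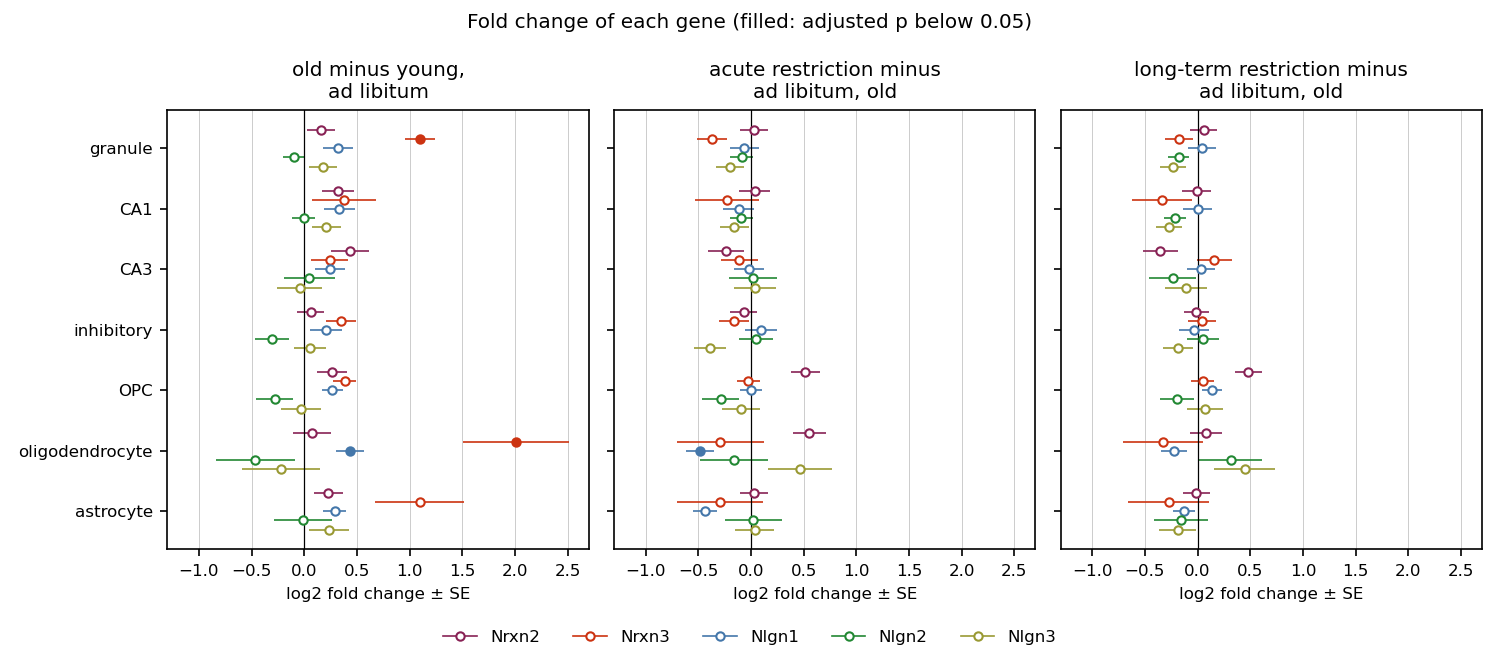
Log2 fold change with its SE for each gene in 7 classes: old against young mice under free feeding, acute restriction against free feeding and long-term restriction against free feeding in old mice. Filled points mark adjusted p below 0.05, which are Nrxn3 in granule- and oligodendrocyte-like nuclei and Nlgn1 in oligodendrocyte-like nuclei with age, and Nlgn1 in oligodendrocyte-like nuclei under acute restriction.

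The next comparisons ask what dietary restriction does in old mice. Both use the same 3 old mice fed ad libitum, so their values are given side by side and no likeness between them is read. Under acute restriction 1 of 42 pairs was called, beside 0.253% of all gene-class pairs, and under long-term restriction none, beside 0.0576%. At an unadjusted p below 0.05 the edgeR counts were 6 and 3, and DESeq2 called 0 in both. The share of all pairs at that unadjusted p is not given here, so nothing is read from these counts. On the normalised scale 5 of the 42 pairs were all lower and 2 all higher under acute restriction, beside 6.76% and 5.98% of all pairs. Under long-term restriction 0 were all lower and 2 all higher, beside 3.98% and 3.78%.

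The called pair was Nlgn1 in oligodendrocytes, lower under acute restriction. The restricted mice had 966, 1106 and 1010 CPM, all below the old mice fed ad libitum at 1390, 1402 and 1338 (log2 fold change -0.49, SE 0.13, edgeR adjusted p = 0.046). In this class 1.98% of genes were called. The call held in 5 of the 13 fits that left out 1 mouse, and the DESeq2 adjusted p was 0.071. Without the libraries numbered 1 it was lost (-0.38, edgeR adjusted p = 0.36), as with depth in the fit (-0.35, edgeR adjusted p = 0.73) and with the trend over gene span removed (-0.15, edgeR adjusted p = 0.76). In these oligodendrocyte sums 4 of 16 marker lists of other cell types were also lower in all restricted mice: granule (4518 to 4544 CPM against 4724 to 4885 in the old mice fed ad libitum), committed OPC (959 to 1060 against 1103 to 1160), OPC (107 to 129 against 139 to 174) and Cajal-Retzius (7.61 to 16.7 against 17.4 to 28.9). Their part in the result was not tested. Under long-term restriction the values were 1234, 1061, 1388 and 1094 (log2 fold change -0.23, SE 0.12, edgeR adjusted p = 0.58). Nlgn1 in astrocytes was at 2551, 3034 and 2919 under acute restriction, all below 3870, 3855 and 3680 under free feeding, but was not called (log2 fold change -0.44, SE 0.11, edgeR adjusted p = 0.27). In the astrocyte sums 2 of 7 neuronal marker lists were also lower in all acutely restricted mice, CA3 (250 to 317 CPM against 333 to 357) and subicular or cortical (2424 to 2484 against 2505 to 2618).

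Nrxn2 in OPC, the class where it was highest, had higher values in both restricted groups without a call. Old mice fed ad libitum had 484, 558 and 578 CPM. Acutely restricted mice had 678, 904 and 706 (log2 fold change 0.52, SE 0.14, edgeR adjusted p = 0.21), and long-term restricted mice had 604, 731, 839 and 817 (0.48, SE 0.13, edgeR adjusted p = 0.22). No restricted mouse overlapped the controls, beside 6.4% and 3.63% of all genes in OPC that were all higher in that way. In the OPC sums 3 of 7 neuronal marker lists were also higher in all acutely restricted mice: inhibitory (3908 to 4797 CPM against 3182 to 3457), mossy cell (856 to 916 against 750 to 826) and CA1 (180 to 199.8 against 107 to 147). The committed OPC list was lower in all restricted mice (1640 to 1978 under acute and 1745 to 2006 under long-term restriction, against 2013 to 2404). Under long-term restriction so was the oligodendrocyte list (191 to 277 against 346 to 660). The part of these markers in the astrocyte and OPC values was not tested. In oligodendrocytes Nrxn2 was at 98.9, 168 and 138 under acute restriction against 79.3, 99.5 and 94.3 (log2 fold change 0.55, SE 0.16, edgeR adjusted p = 0.064), with 1 overlapping mouse.

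Nrxn3, the gene that rose with age in granule nuclei, was all lower there under acute restriction than under free feeding, but not called (log2 fold change -0.37, SE 0.14, edgeR adjusted p = 0.70). Under long-term restriction the change was -0.17 (SE 0.13, edgeR adjusted p = 0.999) from overlapping groups. Within granule clusters, the acute change of cluster 1 lay 0.61 below that of cluster 10 on the log2 scale (difference -0.61, SE 0.09, limma adjusted p = 0.014). The adjustment is over genes and not over pairs of clusters or comparisons. Cluster 1 is also the one with the largest age change in these same data. Nrxn3 was the only gene called by this test, 1 of 11428 (0.00875%), so the share holds no other gene. That call was lost without the old ad libitum mouse 1 or 2 (limma adjusted p = 0.12 and 0.20), without long-term mouse 3 (0.063), and without the libraries numbered 1 (0.16). Neither cluster's own acute change was called (-0.47 and 0.14, edgeR adjusted p = 0.52 and 1.0).

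Nlgn2 and Nlgn3 were called in no class under either restriction. Nlgn3 in inhibitory nuclei was at 33.6, 24.6 and 27.1 CPM under acute restriction, all below 40.6, 35.0 and 38.9 (log2 fold change -0.39, SE 0.15, edgeR adjusted p = 1.0). In the inhibitory sums 1 of 6 marker lists of other neurons was also lower in all restricted mice and 0 higher, and its part was not tested. Nlgn2 in OPC was at 70.9, 54.8 and 70.3, all below 81.04, 76.9 and 88.0 (-0.29, SE 0.17, edgeR adjusted p = 0.88). Between long-term and acute restriction 0 of 42 pairs were called by edgeR and by DESeq2, beside 0.0154% of all pairs. An unadjusted p below 0.05 in edgeR was seen for 3, again without the share of all pairs, so nothing is read from it.

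The proteins around neurexins and neuroligins were read from a list of 44 genes ordered by role. This list too was chosen with earlier results of these data known, so its counts beside those of all pairs are descriptions. Of these, 40 were tested in at least 1 class, in 312 gene-class pairs. Ca10 and Ca11 were not found under these symbols and were not analysed here. With age 12 pairs were higher and 1 lower, from 9 genes, beside 1.7% of all pairs. The median log2 fold change of the list was 0.30 in granule nuclei, 0.29 in oligodendrocytes, 0.23 in CA1 and 0.22 in CA3. It was 0.19 in inhibitory nuclei and in OPC, and 0.10 in astrocytes. Each of these medians rests on 35 to 39 listed genes. In microglia the median was 0.38, over only 15 listed genes. Of these 15, 0 were called, and on the normalised scale 0 were higher and 1 lower in all old mice. The median was below 0 in endothelial (-0.24) and mural nuclei (-0.32), and that of all genes lay between -0.04 and 0.02 in every class. The count of 13 moved widely with the fit: it was 0 with depth as a term, 36 with a term for number 1, 39 with the replicate number as a block and 23 without the libraries numbered 1. Leaving out 1 mouse gave 3 (young mouse 2), 7 (old mouse 2 or 4), 20 (long-term mouse 3) and 24 (young mouse 1), and 10 to 13 for the other 8.

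In granule nuclei 2 of 38 listed genes were called higher with age. Apba1, a presynaptic scaffold that binds neurexins through a PDZ domain, rose from 177, 172 and 207 CPM to 214, 243 and 239 (log2 fold change 0.49, edgeR adjusted p = 0.045). Adgrl3, a latrophilin receptor that binds neurexins and teneurins, rose from 799, 779 and 846 to 988, 953 and 1038 (0.46, edgeR adjusted p = 0.046). In both cases the groups did not overlap.

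In oligodendrocytes 7 of 35 listed genes were higher and 1 lower. Lrrtm4, a leucine-rich postsynaptic ligand, rose from 79.2, 125 and 165 to 832, 587 and 515 CPM (log2 fold change 2.25, edgeR adjusted p = 0.0016). Rbfox1, a neuronal splicing factor, rose from 22.6, 76.3 and 103 to 557, 389 and 306 (2.32, edgeR adjusted p = 0.017), and Khdrbs2, which regulates neurexin splicing, by 1.35. Young mouse 1 had only 7 UMIs of Lrrtm4, 2 of Rbfox1 and 3 of Khdrbs2. These 3 genes did not stand above the microglial share in old mice. Of nuclei thinned to 1000 UMIs, 31.5% of oligodendrocytes and 39.3% of microglia held a UMI of Lrrtm4 (54.2% of both before thinning). For Rbfox1 the shares were 24.6% and 36.7% (46.1% and 49.2%), and for Khdrbs2 4.14% and 5.71% (9.20% and 9.87%). The part of free RNA was not tested. Dlg2, a postsynaptic scaffold, rose by 0.67, Mdga2, which blocks the binding of neuroligins, by 0.53, and Adgrl3 by 0.52. With the trend over gene span removed these 3 turned, to -0.41, -0.33 and -0.28. Lrrtm1 fell by 1.39 on the log2 scale, from 22.6, 27.6 and 21.1 to 7.43, 8.68 and 9.75 CPM, on 2 to 30 UMIs in each of these 6 mice. The granule, CA3 and Cajal-Retzius marker sums given above were higher in these same old mice, and their part in these calls was not tested.

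In astrocytes, where 0.428% of all genes were called, 1 of 37 listed genes was called, Dlg2 (log2 fold change 1.49, edgeR adjusted p = 0.031). It was at 173, 198 and 273 CPM in young and 340, 766 and 705 in old mice. These values lay within those of microglia, at 156 to 653 CPM in young and 209 to 931 in old mice. In the astrocyte sums 3 of 7 neuronal marker lists were higher in all old mice, those of granule (790 to 857 CPM in young and 895 to 1110 in old mice), CA3 (271 to 308 and 333 to 357) and inhibitory neurons (522 to 669.6 and 670.6 to 882), as was the committed OPC list (862 to 1014 and 1042 to 1115). In OPC, with 1.97% of all genes called, 2 of 35 were called. Rbfox1 rose there from 2386, 2340 and 2525 to 3348, 3454 and 3313 CPM (0.55, edgeR adjusted p = 0.0039), and Dlg2 by 0.42 (edgeR adjusted p = 0.028). In the OPC sums the inhibitory (2666 to 3139 CPM in young and 3182 to 3457 in old mice), CA3 (486 to 577 and 586 to 697), subicular or cortical (895 to 1122 and 1162 to 1296) and astrocyte lists (845 to 912 and 947 to 1011) were higher in all old mice. The committed OPC (2462 to 2953 and 2013 to 2404) and oligodendrocyte lists (698 to 977 and 346 to 660) were lower in all of them, and the part of these markers in the astrocyte and OPC calls was not tested. No listed gene was called in the other 6 classes. Under acute restriction Magi2, a scaffold of inhibitory and excitatory synapses, was lower in oligodendrocytes (7618, 7892 and 7340 against 10367, 9544 and 9889 CPM, log2 fold change -0.45, edgeR adjusted p = 0.044). It was called in 5 of the 13 fits that left out 1 mouse, those without long-term mouse 1 or 2 or without a young mouse. It was not called by DESeq2, with depth in the fit, with the span trend removed (log2 fold change -0.05), with doublets kept or without the libraries numbered 1. The 4 marker lists that were lower beside Nlgn1 come from these same sums, and their part was not tested here either. Magi2 gave the only listed pair called under acute restriction, and there were 0 under long-term restriction and 0 between the 2 restrictions by edgeR.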

How the data were processed

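The authors deposited UMI counts per gene and barcode, made with Cell Ranger 4.0.0 on mm10, per the submitters' processing notes. Removal of free RNA or doublets by the authors is not given in the sources used here. Barcodes under 500 genes or above 5% mitochondrial UMIs were dropped, leaving 105427 of 105759, and 7386 called doublets (7.01%) were removed. Nuclei were clustered with scanpy 1.11.5 and leidenalg 0.10.2 (2000 variable genes without the 5 genes, 30 components, resolution 1.0) and named from marker lists. Counts were summed per mouse and class (at least 20 nuclei) and fitted over all 13 mice with edgeR 4.0.16 (quasi-likelihood, TMM, low-count filter by group, Benjamini-Hochberg over all genes of a class, threshold 0.05). Differences between clusters or classes used limma 3.58.1, and DESeq2 1.42.0 was an alternative. Named genes are the 5 genes, up to 10 called listed partners per comparison by adjusted p, and the 3 closest genes in pattern. A gene that this rule names is not reported here and stays in the counts of the partner list. The genes and lists were chosen with earlier results of these data known. Each library is 1 mouse per the labels, and nothing says how mice were spread over preparation days. On simulated granule counts for the age comparison over 16550 genes, 5 of 107 genes with a true absolute log2 fold change of 0.5 and 45 of 92 with one of 1 were called.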

Additional observations from a re-analysis of the deposited data

Results flagged for a closer look

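In 3 of 40 groups of 4 mice, 1 long-term restricted mouse lay far from the others on the normalised scale. The gap divided by the range was 0.87 for Nrxn2 in CA3-like nuclei (mouse 3, 87.5 CPM against 65.7 to 69.5), 0.908 for Nlgn1 in inhibitory-like nuclei (mouse 2, 1800 against 2140 to 2220) and 0.863 for Nlgn2 in CA1-like nuclei (mouse 4, 32.0 against 26.2 to 30.2). The ratios are on the normalised scale and the bracketed values are CPM, on which the gaps are smaller relative to the range, most so for Nlgn2. Chance flags about 1 in 20 groups.

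With age, on the normalised scale, Nrxn2 was higher in all old mice in 2 classes and lower in all of them in 1 (CA1 and CA3 against mural). These groups overlap on the CPM scale, and the difference between the classes was not tested. The age change of Nrxn3 in granule cluster 1 exceeded that in cluster 0 by 0.84 and that in cluster 10 by 0.90 on the log2 scale, and under acute restriction the difference between clusters 1 and 10 was -0.61.

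The nuclei of unnamed clusters, which enter no comparison, also held the 5 genes. Mean levels over 13 mice were 3980 CPM for Nrxn3 (2860 to 5000), 3490 for Nlgn1 (2750 to 4210), 99.6 for Nrxn2 (88.3 to 135), 33.3 for Nlgn3 (26.9 to 41.3) and 29.3 for Nlgn2 (23.8 to 36.1).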

How the results depend on the processing

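With age 3 pairs of the 5 genes were called, 0 with depth in the fit, 0 with the gene span trend removed, and 1 to 3 without 1 mouse. For listed partners, 13 pairs with age became 25 with no filter on low counts, 35 with DESeq2, 36 with a term for number 1, 0 with depth, 5 with the span trend removed, 23 without the libraries numbered 1 (chosen after seeing the data), and 3 (without young mouse 2) to 24 (without young mouse 1) when 1 mouse was left out. Under acute restriction the 1 called pair of the 5 genes became 0 with DESeq2, depth or doublets kept, 1 other pair with the span trend removed or without the libraries numbered 1, 3 with the number 1 term or with only the 2 groups, and 0 to 1 without 1 mouse. The 1 called partner pair became 3 with no filter or the number 1 term, 0 with depth, with doublets kept or without the libraries numbered 1, 2 with nuclei of at least 1000 UMIs, 5 with only the 2 groups, and 0 to 1 without 1 mouse. Under long-term restriction the 0 calls of the 5 genes became 1 with doublets kept (Nlgn1, endothelial) or only the 2 groups (Nrxn2, OPC), and those of the partners became 1 with no filter, DESeq2, the span trend removed, only the 2 groups or no libraries numbered 1, and 0 to 1 without 1 mouse. With the replicate number as a block, calls of the 5 genes were 4 with age and 1 under acute restriction, and partner calls were 39 with age, 3 under acute and 1 under long-term restriction. The numbers were not taken to pair mice, since in every class at least 1 same-numbered pair correlated below 0.1. In CA1 the median correlation of deviations was 0.49 for number 1, -0.01 for number 2 and -0.03 for number 3, and number 4, with 1 pair, had 0.40. In granule nuclei the medians were 0.55, 0.07 and 0.21 for numbers 1 to 3, and 0.35 for the 1 pair of number 4. With the span trend removed, 4 age changes in oligodendrocytes turned: Nlgn1 to -0.43, Adgrl3 to -0.28, Dlg2 to -0.41 and Mdga2 to -0.33. The Vip level of Nrxn2 was 295 CPM after thinning. Of the values for single genes, 4341 stayed on their side of the threshold (262 of them changed sign, called under neither setting), 140 lost the call, 23 gained it and 4 turned. The cause of these shifts was not tested. Endothelial and mural nuclei could not be fitted with at least 1000 UMIs or without the libraries numbered 1.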

Other observations

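Unnamed cluster 14 had the widest spread of Nlgn1 among the unnamed clusters seen in 13 mice. Its level was 4934 ± 2629 CPM (SD, n = 13 mice), from 309.5 to 8277, while Nrxn3 in the same nuclei was at 3857 ± 643.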
